A study of Mus musculus with 2 samples.

Results

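Hypoxic A20 tumour cells are described here as the A20 cells with the highest summed level of Bnip3, Ndrg1, Fam162a, Mgarp and 1600014C23Rik. In each cell, the unique molecular identifiers (UMIs, the labels by which captured RNA molecules are counted) of these 5 genes were added and expressed per 10000 UMIs of the cell. The cells in the top 10% of this score, over both libraries together, were the hypoxic A20 cells. They numbered 395 of 3945 A20 cells, out of 4975 barcodes in the series, with 226 of 1754 A20 cells in the library from TAK-981-treated mice and 169 of 2191 in the library from vehicle-treated mice. A barcode counted as an A20 cell when under 10% of its UMIs were mitochondrial, at least 200 genes were detected, Cd79a had at least 1 UMI, and Cd3d, Cd3e, Cd3g and Lyz2 had none. Oxygen was not measured, so the word hypoxic stands for the score. Because the cells were chosen by measured RNA levels, every difference between them and the other A20 cells is given as a description, with no test.

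A20 is a B cell lymphoma line from BALB/c mice, and it was grown under the skin of the flank of Balb/c mice. The TAK-981 library (treatment label TAK-981-001-J) came from tumours taken 8 h after an intravenous dose of 7.5 mg/kg, and the vehicle library from tumours taken 8 h after 20% HPbCD, a cyclodextrin solution. TAK-981 is a small molecule that blocks SUMOylation, the attachment of the protein SUMO to other proteins, at its activating enzyme. Tumours were dispersed mechanically, depleted of dead cells and profiled with the 10x Genomics 5' chemistry. How many mice gave cells to a library is not stated, there was 1 library per arm, and no test between the arms was possible. The libraries are called treated (TAK-981) and vehicle from here on.

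When oxygen is scarce, the hydroxylases that mark the HIF alpha subunits for destruction slow down, and the HIF transcription factors switch on genes that help a cell live with less oxygen. The best known of these genes raise glucose uptake, glycolysis and lactate export, hold pyruvate back from the mitochondria, and remove mitochondria through the receptors BNIP3 and BNIP3L. Solid tumours hold regions far from vessels where this programme is active, and cells there commonly divide less.

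The hypoxic A20 cells held 4327199 UMIs in the treated library and 3994096 in the vehicle library, and the other A20 cells 28136837 and 49017157. Median UMIs per cell were 17416.5 in the hypoxic and 15945.5 in the other A20 cells of the treated library, and 21337 and 22528 in the vehicle library, so the 2 kinds of cell were sequenced to similar depth within a library and the vehicle cells more deeply. Median mitochondrial shares lay between 2.04 and 2.60% in all 4 groups of cells. The libraries had 11 barcodes in common, 1 of them a hypoxic cell of the vehicle library. Levels are given in CPM, the UMIs of a gene per 1000000 UMIs summed over a group of cells, and ratios are log2 ratios of such levels, with exact 95% counting intervals in parentheses. They treat UMIs as independent draws and cover counting error only, not the differences between cells or mice, so they are too narrow. The median log2 ratio over all measured genes (at least 10 UMIs in the cells compared) was -0.21 for hypoxic over other cells in the treated library and -0.10 in the vehicle library, and the values below are to be read against these shifts.

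The 5 score genes set the group apart by construction, and their levels are given to show how. Bnip3, a receptor for mitophagy (the removal of mitochondria), stood at 804 CPM in the hypoxic and 45.7 in the other A20 cells of the treated library, and 673 and 69.8 in the vehicle library. Fam162a, which encodes a mitochondrial protein known to respond to HIF, stood at 654 CPM in the hypoxic and 78.7 in the other A20 cells of the treated library, and 497 and 88.4 in the vehicle library. The hypoxia-induced gene Ndrg1 stood at 90.1 CPM in the hypoxic and 2.88 in the other A20 cells of the treated library, and 57.3 and 4.88 in the vehicle library. Levels of Mgarp, another mitochondrial protein, were 122 against 18.3 and 124 against 24 CPM, and those of 1600014C23Rik were 54.1 against 0.711 and 28.0 against 0.612 CPM, in the same order. All 5 genes were thus high in the hypoxic cells of both libraries, and Bnip3 and Fam162a together gave most of the score. All 5 were detected in 53 of 226 hypoxic cells of the treated library and 33 of 169 of the vehicle library, and in 0 of 1528 and 4 of 2022 other A20 cells. When each gene was left out of the score in turn and the top 10% chosen again, the gene left out was still higher in the cells chosen by the remaining 4: Bnip3 by 11.5-fold in the treated and 7.24-fold in the vehicle library, Ndrg1 by 27.6-fold and 10.9-fold, and Mgarp by 5.58-fold and 3.98-fold. Between 82.2 and 99.1% of the hypoxic cells were chosen again each time, and the score genes were picked with earlier results of these data known, so these folds describe the choice and support nothing beyond it.

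**Figure D1:**
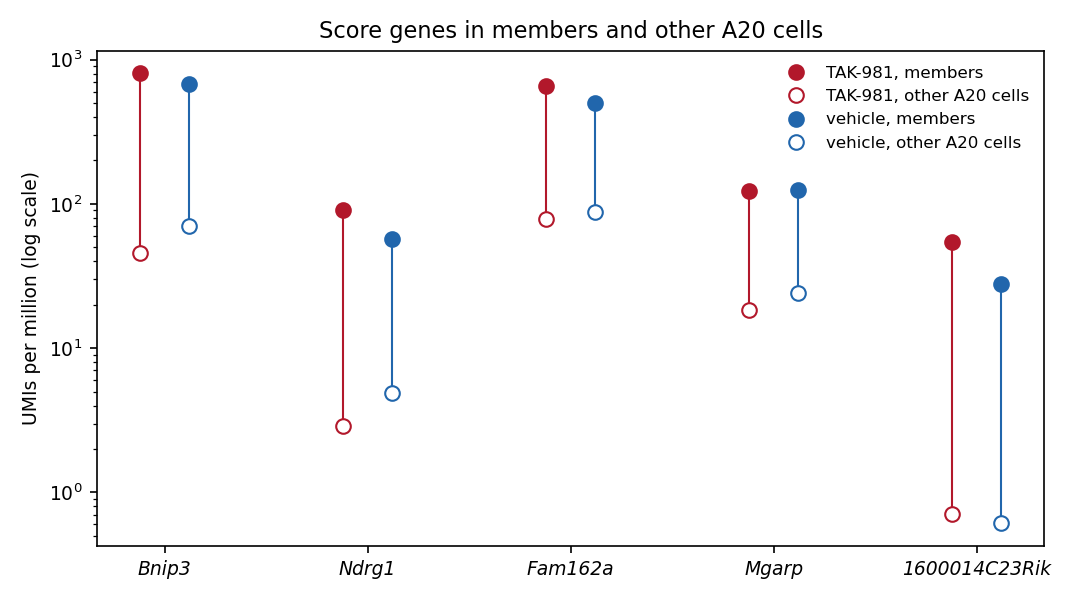
Levels of the 5 score genes (x axis) in CPM on a log scale (y axis), in hypoxic A20 cells (filled points, called members) and other A20 cells (open points) of the treated library (TAK-981, red) and the vehicle library (blue). Bnip3 stands at 804 and 673 in the hypoxic and at 45.7 and 69.8 in the other cells, and the filled points lie above the open ones for every gene.

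The DNA upstream of these genes is shown because HIF is known to bind the core letters ACGTG or GCGTG. The 4 score genes with a listed promoter hold such letters within the 250 bases before the start. So do the lactate exporter Slc16a3 and the glycolytic enzyme Pgk1. The 250 bases before the start site are printed 5′ to 3′ on the gene's strand, from RefSeq (GRCm38.p6), with ACGTG or GCGTG on either strand in capitals. They lie at chr7:138909507-138909756 on the minus strand for Bnip3, chr16:36071562-36071811 on the minus strand for Fam162a, chr3:51396548-51396797 on the minus strand for Mgarp, chr17:45733845-45734094 on the minus strand for 1600014C23Rik, chr11:120948817-120949066 on the plus strand for Slc16a3 and chrX:106186850-106187099 on the plus strand for Pgk1.
Bnip3: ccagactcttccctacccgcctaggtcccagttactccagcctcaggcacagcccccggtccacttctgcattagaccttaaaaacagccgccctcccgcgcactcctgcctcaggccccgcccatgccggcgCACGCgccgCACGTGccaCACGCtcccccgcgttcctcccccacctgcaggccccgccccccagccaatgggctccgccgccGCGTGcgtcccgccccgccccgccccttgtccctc
Fam162a: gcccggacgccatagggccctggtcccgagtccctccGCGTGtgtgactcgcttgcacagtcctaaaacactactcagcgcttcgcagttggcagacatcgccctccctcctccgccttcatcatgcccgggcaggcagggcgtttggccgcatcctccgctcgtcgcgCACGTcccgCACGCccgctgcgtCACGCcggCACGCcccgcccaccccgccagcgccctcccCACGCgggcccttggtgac
Mgarp: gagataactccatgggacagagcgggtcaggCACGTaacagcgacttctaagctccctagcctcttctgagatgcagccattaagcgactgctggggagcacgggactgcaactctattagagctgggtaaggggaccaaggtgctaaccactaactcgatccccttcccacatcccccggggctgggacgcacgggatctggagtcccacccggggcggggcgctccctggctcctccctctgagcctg
1600014C23Rik: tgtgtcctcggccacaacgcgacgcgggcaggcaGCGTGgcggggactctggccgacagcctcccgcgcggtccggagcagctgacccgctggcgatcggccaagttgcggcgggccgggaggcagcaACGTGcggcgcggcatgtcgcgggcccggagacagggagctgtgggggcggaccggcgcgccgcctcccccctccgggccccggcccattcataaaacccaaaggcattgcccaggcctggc
Slc16a3: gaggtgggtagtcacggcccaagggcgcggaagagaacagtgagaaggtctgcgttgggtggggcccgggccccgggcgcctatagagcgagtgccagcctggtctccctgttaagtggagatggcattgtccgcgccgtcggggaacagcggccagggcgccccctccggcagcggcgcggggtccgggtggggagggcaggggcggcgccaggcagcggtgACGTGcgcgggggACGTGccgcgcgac
Pgk1: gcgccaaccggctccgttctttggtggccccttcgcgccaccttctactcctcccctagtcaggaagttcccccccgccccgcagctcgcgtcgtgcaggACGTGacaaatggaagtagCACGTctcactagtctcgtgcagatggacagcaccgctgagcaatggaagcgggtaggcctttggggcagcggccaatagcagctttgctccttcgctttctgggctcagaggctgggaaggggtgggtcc

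These windows held 5, 6, 1, 2, 2 and 2 matches in the order printed, where matches may overlap. The letters are short and common: they occurred in 38.6% of all 32851 listed promoters of this length, and at any listed start of 41.5% of 27025 genes. Among the genes of the lists used below, they occurred in 21 of 25 genes of glucose uptake, glycolysis and lactate export, 26 of 30 other HIF targets, 14 of 27 genes of DNA replication and 18 of 43 interferon response genes. The same letters lie within CACGTG, the E-box read by MYC and other factors, and a match is a description of the sequence, not a binding site. Ndrg1, Bnip3l and Ero1l were not matched in this table.

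Hypoxic cells made up a larger share of the A20 cells in the treated library at the common threshold. The share was 12.9% (11.4 to 14.5%) in the treated and 7.71% (6.63 to 8.91%, exact binomial 95% intervals for counting error only) in the vehicle library, a ratio of 1.67 (1.36 to 2.05). The ratio depended on where the score was divided: it was 2.23 for the top 5% of cells and 1.03 for the top 20%. More cells of the treated library therefore lay at the very top of the score, and more also lay at 0. Hypoxic cells of the treated library had a median score of 14.9, against 12.8 in the vehicle library, while a score of 0 was found in 24.2% of A20 cells of the treated library and 16.4% of the vehicle library. Cells with a score of 0 were also the shallowest, with median UMIs of 9076.5 and 11239.5. The mitochondrial limit set aside unequal numbers of barcodes, 376 of 2396 in the treated and 124 of 2579 in the vehicle library. With a limit of 20% the shares of hypoxic cells were 12.2% and 8.13%, and with a limit of 5% they were 13.8% and 7.29%. With each cell thinned to 4000 UMIs the ratio was 1.47. Without the cells that held any UMI of another cell type's markers, which left 707 and 749 A20 cells, it was 1.22 (0.87 to 1.71), an interval that includes 1. That setting changed more than the cells kept: the top 10% then began at a score of 6.18, and among hypoxic cells 62.4 and 69.2% held a UMI of the dendritic cell list alone, against 44.2 and 50.2% of other A20 cells. The threshold, a score of 8.80, fell in a continuous range: the 5 cells just above it scored 8.80 to 8.91, the 5 just below it 8.71 to 8.80, and 127 cells lay between 7 and the threshold and 103 between the threshold and 11. With 1 library per arm, a difference between the arms and one between the mice cannot be told apart.

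The genes that carry glucose to lactate were higher in the hypoxic cells at nearly every step. Of 25 measured genes of glucose uptake, glycolysis and lactate export, 18 were at least 2-fold higher in the treated library and 14 in the vehicle library, and 2 and 0 at least 2-fold lower. Over all measured genes, 4.14% of 11339 were at least 2-fold higher and 6.54% at least 2-fold lower in the treated library, and 6.87% of 11645 higher and 4.83% lower in the vehicle library; since the cells were chosen within this contrast, nothing is read from the comparison of these shares. The list's median log2 ratio was 1.41 and 1.11. Slc2a1, the glucose transporter GLUT1, stood at 128 CPM in the hypoxic and 30.8 in the other A20 cells of the treated library, and 129 and 42.6 in the vehicle library, a log2 ratio of 2.05 (1.90 to 2.21) and 1.60 (1.45 to 1.74). Of the hexokinases, which trap glucose in the cell, Hk1 had 48 and 55 UMIs in the hypoxic and other cells of the treated library and 49 and 106 in the vehicle library, a log2 ratio of 2.50 (1.92 to 3.09) and 2.50 (1.98 to 3.01), while Hk2 reached 0.80 (0.45 to 1.15) and 0.36 (-0.057 to 0.75). The ratio was thus far larger for Hk1 than for Hk2.

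In the middle and lower part of the pathway, Aldoa, Tpi1, Pgk1, Eno1, Pkm and Ldha were all at least 2-fold higher in both libraries. Pgk1, which makes the first ATP of the pathway, stood at 1041 CPM in the hypoxic and 242 in the other A20 cells of the treated library, and 975 and 303 in the vehicle library, a log2 ratio of 2.11 (2.05 to 2.16) and 1.68 (1.63 to 1.74). Ldha, which turns pyruvate into lactate, stood at 2843 CPM in the hypoxic and 1071 in the other A20 cells of the treated library, and 2923 and 1406 in the vehicle library, a log2 ratio of 1.41 (1.38 to 1.44) and 1.06 (1.03 to 1.08). Log2 ratios were 1.60 and 1.33 for Aldoa, 1.66 and 1.19 for Tpi1, 1.83 and 1.34 for Eno1 and 1.59 and 1.31 for Pkm, in the treated and vehicle libraries respectively. Gapdh, often used as a reference gene, was itself higher, by 0.93 and 0.69 on the log2 scale. Pgk1 has a near-identical copy, Pgk1-rs7, and reads could be split between them, so its values are uncertain to that extent.

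The lactate exporter Slc16a3 (MCT4) had the highest ratio of the list in the treated library, with 145 CPM in the hypoxic and 17.5 in the other A20 cells of the treated library, and 161 and 35.6 in the vehicle library, a log2 ratio of 3.05 (2.88 to 3.22) and 2.18 (2.05 to 2.31). Slc16a1 (MCT1), the other lactate carrier measured, was instead lower, with 13.9 against 30.5 and 16.8 against 26.4 CPM and log2 ratios of -1.14 and -0.65. The 2 carriers therefore differed in direction in both libraries. The glucose transporter Slc2a3 was lower too, with log2 ratios of -0.87 and -0.94, and the median of all genes lay closer to 0 than either value. Among the regulators, Pfkfb3, which makes the activator of phosphofructokinase, had log2 ratios of 1.66 and 1.27, Pdk1, which restrains the entry of pyruvate into the mitochondria, 1.73 and 1.32, and Pfkfb4, with few UMIs, -1.23 and 0.27. At the branch to glycogen, Pgm2 was also higher, at 2.25 and 2.02, as was glycogen synthase Gys1, at 1.13 and 0.51. Pgm1 stood at 0.033 and -0.42. Pgm1 and Pgm2 are the symbols used in the deposited data. Whether each stands for the gene that now bears that name was not tested, so the values belong to the symbols only.

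**Figure D2:**
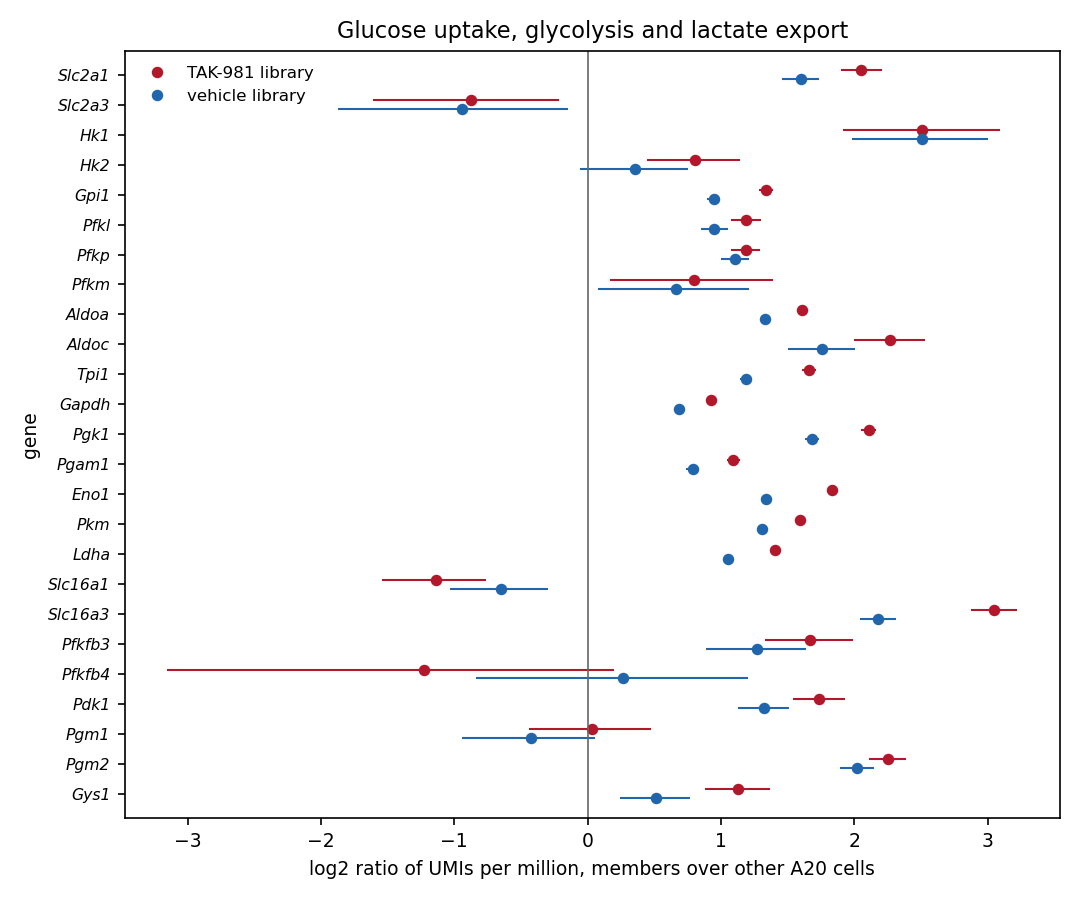
Log2 ratio of the level in hypoxic A20 cells (members) over other A20 cells (x axis) for 25 genes of glucose uptake, glycolysis and lactate export (y axis), with exact 95% counting intervals as lines, in the treated library (TAK-981, red) and the vehicle library (blue). Slc16a3 lies at 3.05 and 2.18, while Slc2a3 and Slc16a1 lie left of 0 in both libraries.

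The highest ratio outside the score genes, among genes with at least 100 UMIs in each library, belonged to Eno2, the enolase best known from neurons. It had 99 UMIs in the hypoxic cells against 39 in the 1528 other cells of the treated library and 86 against 88 in the vehicle library, which is 16.5-fold (log2 4.04 (3.50 to 4.62)) and 12-fold (3.58 (3.14 to 4.03)). The 250 bases before its listed start held 0 matches to ACGTG or GCGTG, which says only that these letters are absent from that window.

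The other HIF targets followed the same direction with wide differences in size. Of 27 measured in the treated library, 15 were at least 2-fold higher and 0 lower, and of 28 in the vehicle library, 13 and 0, with median log2 ratios of 1.04 and 0.87. The shares of all measured genes at least 2-fold higher were 4.14% and 6.87%, and those lower 6.54% and 4.83%. Bnip3l, the partner of Bnip3 as a mitophagy receptor, stood at 616 CPM in the hypoxic and 138 in the other A20 cells of the treated library, and 613 and 167 in the vehicle library, a log2 ratio of 2.16 (2.09 to 2.23) and 1.88 (1.81 to 1.94). Higd1a, a small mitochondrial protein known to respond to hypoxia, stood at 467 against 153 and 437 against 159.8 CPM, with log2 ratios of 1.61 and 1.45. Ero1l, the oxidase that drives disulfide formation in the endoplasmic reticulum (ER), had log2 ratios of 1.89 (1.80 to 1.99) and 1.84 (1.75 to 1.94), P4ha1, a collagen prolyl hydroxylase, 1.46 and 1.24, and Insig2, which retains the regulators of cholesterol synthesis in the ER, 1.31 and 1.03. Hilpda, a protein of lipid droplets, differed in size between the libraries, with 63.3 CPM in the hypoxic and 11.8 in the other A20 cells of the treated library, and 36.1 and 13.8 in the vehicle library. Its log2 ratio was 2.42 (2.19 to 2.66) in the treated and 1.38 (1.11 to 1.64) in the vehicle library.

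Not every well-known HIF target was clearly higher. Vegfa, the vessel growth factor, stood at 6.70 CPM in the hypoxic and 6.58 in the other A20 cells of the treated library, and 7.76 and 5.69 in the vehicle library, log2 ratios of 0.028 (-0.59 to 0.60) and 0.45 (-0.14 to 0.99), both intervals including 0. Adm (adrenomedullin) was closer to level in the treated than in the vehicle library, at 245 against 223 and 256 against 166 CPM, with log2 ratios of 0.14 and 0.63. Car9, the carbonic anhydrase often stained to find hypoxic tumour cells, had 3 UMIs in the hypoxic and 1 in the other cells of the treated library and 2 and 0 in the vehicle library, too few for a ratio.

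Of the genes that sense oxygen, 1 stood out. Egln1 (PHD2), the main HIF prolyl hydroxylase and itself a HIF target, stood at 36.7 CPM in the hypoxic and 8.71 in the other A20 cells of the treated library, and 30.8 and 8.38 in the vehicle library, a log2 ratio of 2.08 (1.78 to 2.37) and 1.88 (1.57 to 2.17). Hif1a RNA was level, at 59.6 against 58.9 and 51.8 against 47.1 CPM and log2 ratios of 0.017 (-0.18 to 0.21) and 0.14 (-0.075 to 0.34), both intervals including 0. Its partner Arnt had 0.15 and 0.59, the ubiquitin ligase gene Vhl -0.014 and 0.63, and Cited2, a HIF target that competes with HIF for its coactivator, 0.76 and 0.88. Epas1 (HIF-2 alpha) and Egln3 were barely detected, with at most 2 UMIs in any group of cells. The list's median was 0.11 and 0.59 over 7 measured genes.

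**Figure D3:**
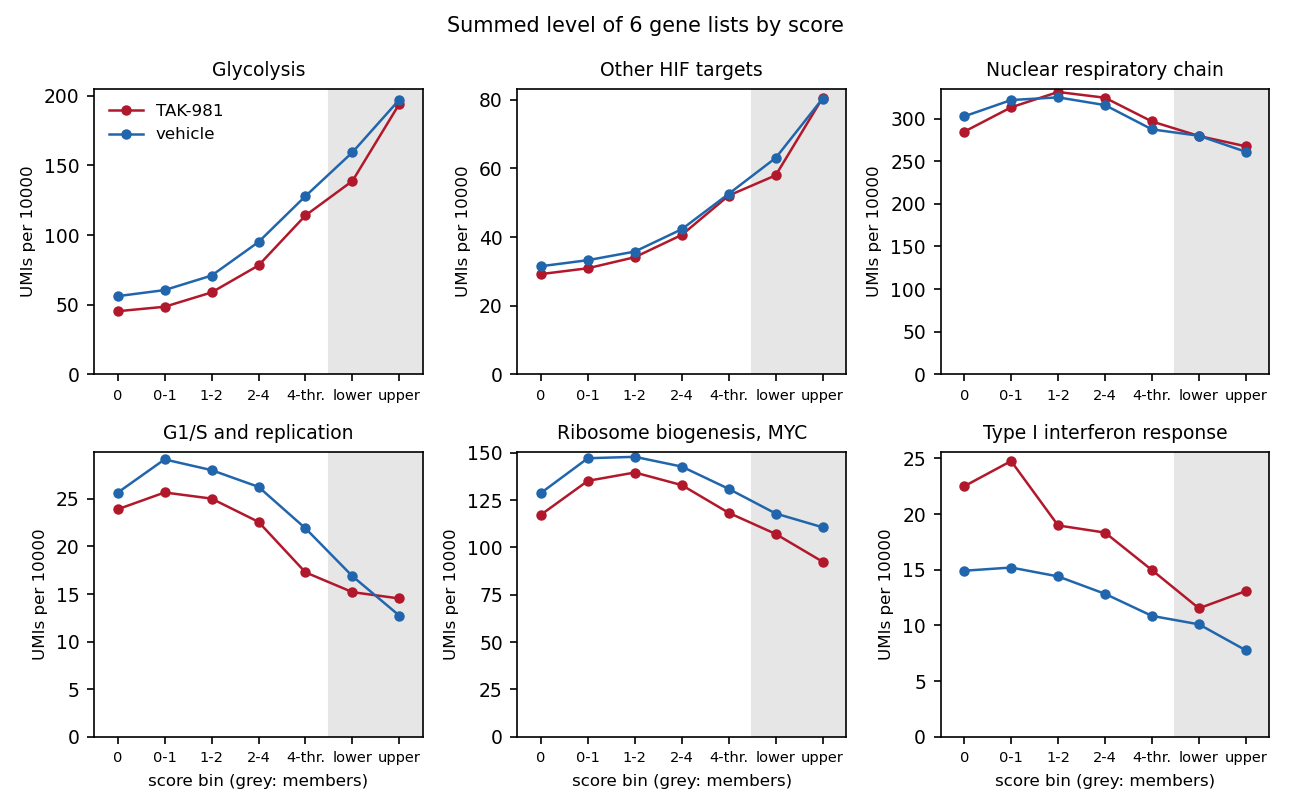
Summed level of 6 gene lists (y axes, UMIs per 10000, starting at 0) across 7 bins of the score (x axis: 0, above 0 to 1, 1 to 2, 2 to 4, 4 to the threshold, then the hypoxic cells with lower and with upper scores, shaded), in the treated library (TAK-981, red) and the vehicle library (blue). Glycolysis goes from 45.3 to 194 and from 56.1 to 197 along the score, while replication genes are lowest in the hypoxic cells.

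Across the range of the score, the programme was graded. Cells were grouped into 7 bins, from a score of 0 to the hypoxic cells below and above a score of 13.7, which divides them evenly. The summed glycolysis list was higher in each bin than in the one before in both libraries, from 45.3 to 194 UMIs per 10000 in the treated and from 56.1 to 197 in the vehicle library. The other HIF targets went from 29.2 to 80.6 and from 31.5 to 80.4 in the same way. Cells just below the threshold, with scores above 4, already held 114 and 128 glycolysis UMIs per 10000. The hypoxic cells therefore lie at the top of a continuous range, with no gap at the threshold. With every cell thinned to 4000 UMIs, the median cell held 66 glycolysis UMIs among the hypoxic and 21 among the other cells of the treated library, and 68 and 28 in the vehicle library.

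Nuclear genes of the respiratory chain were slightly lower as a group, though none by 2-fold. Of 76 measured genes, 64 had a log2 ratio below 0 in the treated library, and 67 of 75 in the vehicle library, with medians of -0.27 and -0.26, not far from the all-gene medians. Transcripts encoded by the mitochondrial genome were close to level, with medians of -0.15 and -0.048. The mitophagy and autophagy list outside the score had medians of 0.16 and 0.23; its cargo receptor Sqstm1 (p62) had log2 ratios of 0.70 and 0.69 and the mitophagy kinase Pink1 0.55 and 0.64. RNA of Bnip3l, the mitophagy receptor outside the score, was thus much higher without a matching difference in RNA of the respiratory chain. The level of Bnip3 was set by the choice of cells and is not counted here.

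Oxidative stress and iron genes had no common direction, with medians of -0.13 and -0.16 and 12 of 20 and 14 of 21 genes below 0. Within the list, haem oxygenase Hmox1 had log2 ratios of 0.95 and 0.91 and the ferritin light chain Ftl1 0.97 and 0.93, while the transferrin receptor Tfrc had -0.65 and -0.61. In the ER, most chaperones were level or lower, with list medians of -0.29 and -0.066. P4hb, the disulfide isomerase that is also a subunit of the collagen prolyl hydroxylase, was the 1 gene of the list at least 2-fold higher in both libraries, at 636 CPM in the hypoxic and 235 in the other A20 cells of the treated library, and 508 and 241 in the vehicle library, log2 ratios of 1.44 (1.37 to 1.50) and 1.08 (1.01 to 1.15). With Ero1l and P4ha1 this gives 3 genes of oxidative folding and prolyl hydroxylation that were at least 2-fold higher in both libraries. Hspa5 (BiP), the main ER chaperone, had log2 ratios of -0.24 and 0.022, and the stress sensor kinase Eif2ak3 (PERK) 0.95 and 1.64.

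Genes of DNA replication were lower in the hypoxic cells without exception. All 34 measured genes of the G1/S and replication list had a log2 ratio below 0 in both libraries, 10 and 12 of them by at least 2-fold, with medians of -0.83 and -0.92. The shares of all measured genes at least 2-fold lower were 6.54% and 4.83%. Tyms, thymidylate synthase, stood at 45.1 CPM in the hypoxic and 121 in the other A20 cells of the treated library, and 47.6 and 132 in the vehicle library, log2 ratios of -1.43 (-1.64 to -1.22) and -1.47 (-1.68 to -1.26). Ccne1, cyclin E1 of the entry into S phase, stood at 7.63 against 25.4 and 8.01 against 26.9 CPM, log2 ratios of -1.74 (-2.29 to -1.24) and -1.75 (-2.30 to -1.24). The replicative helicase subunits ranged more widely, with Mcm6 at -0.25 and -0.30 and Mcm5 at -0.84 and -1.01. Of 36 genes of the G2/M list, 35 were below 0 in each library, with smaller medians of -0.51 and -0.44; the proliferation marker Mki67 had -1.0 and -0.77. In cells thinned to 4000 UMIs, the median cell held 3 UMIs of the replication list among the hypoxic and 7 among the other cells of the treated library, and 3 and 9 in the vehicle library.

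The inhibitors of the cell cycle were mixed, and the direction held for a few. Cdkn1b (p27), which holds cells in G1, stood at 46.7 CPM in the hypoxic and 17.3 in the other A20 cells of the treated library, and 38.8 and 13.7 in the vehicle library, log2 ratios of 1.43 (1.18 to 1.67) and 1.50 (1.24 to 1.76). Cdkn2b (p15) had 2.26 and 1.31 and Ccng2, a cyclin linked to cell cycle arrest, 0.87 and 1.17. Cdkn1a (p21) had 1.83 and 0.23, but 1 cell gave 32.7% of its UMIs in the hypoxic cells of the treated library, and Cdkn2a had -0.020 and -0.040. The list as a whole had medians of 0.057 and 0.23.

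Genes for making ribosomes and amino acids were lower too. The ribosome biogenesis and MYC target list had medians of -0.85 and -0.65, with 28 of 28 genes below 0 in the treated and 27 of 28 in the vehicle library. Srm, spermidine synthase, stood at 92.2 against 241 and 124 against 258 CPM, log2 ratios of -1.38 and -1.06, the nucleolar factor Bop1 had -1.25 and -1.23, and Myc itself -0.90 and -0.38. In contrast, RNAs of the ribosomal proteins were slightly higher, with medians of 0.22 and 0.16 over 99 genes. The integrated stress response list, targets of ATF4 that include many genes of amino acid supply, had medians of -0.68 and -0.61. At least 2-fold lower were 7 of 30 and 3 of 28 genes, and 1 and 0 were at least 2-fold higher. Over all measured genes, 6.54% and 4.83% were at least 2-fold lower. Within the stress response list, the serine synthesis genes Phgdh and Psph had log2 ratios of -1.01 and -0.81 and -1.11 and -0.97, the proline synthesis gene Aldh18a1 -1.33 and -1.08, and the amino acid transporter Slc7a5 -1.09 and -0.81. Atf4 itself had log2 ratios of -0.35 and -0.31 and Ddit3 (CHOP) -0.39 and -0.28, while Atf3, a stress-induced factor of the same list, had 0.81 and 0.45. Of the list, 2 genes in the treated and 3 in the vehicle library had a ratio above 0. Genes of cholesterol synthesis and uptake had medians of -0.54 and -0.38, and the isomerase Idi1 had -1.09 and -1.03.

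**Figure D4:**
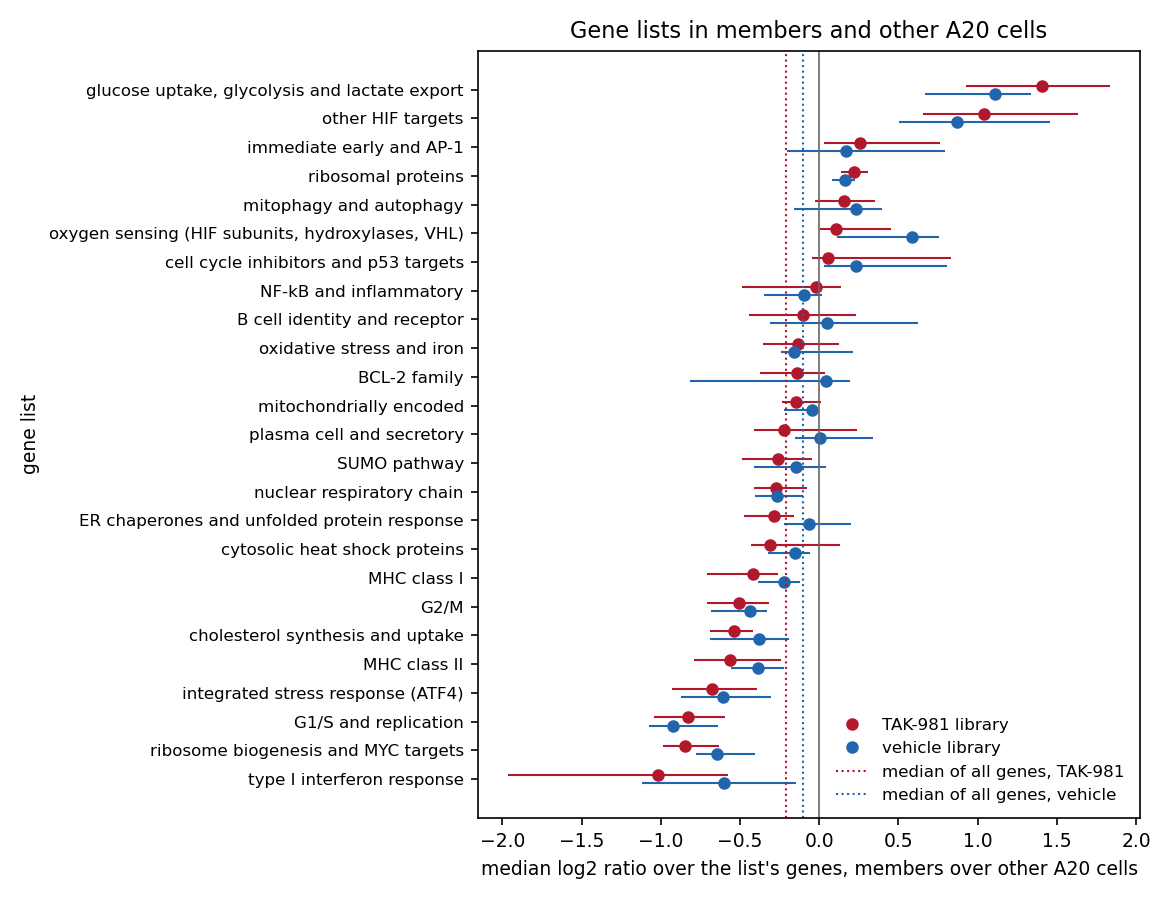
Median log2 ratio over the genes of each of 25 lists (y axis), hypoxic A20 cells (members) over other A20 cells (x axis), with the range from the lower to the upper quartile of the genes as lines, in the treated library (TAK-981, red) and the vehicle library (blue); dotted lines mark the median of all genes. Glycolysis (1.41 and 1.11) and other HIF targets (1.04 and 0.87) stand at one end, and the interferon (-1.01 and -0.60), ribosome biogenesis and replication lists at the other.

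Interferon response genes were lower in the hypoxic cells of both libraries. Of 44 measured genes, 23 were at least 2-fold lower in the treated library, and of 37 in the vehicle library 11; none was at least 2-fold higher, and the medians were -1.01 and -0.60. The shares of all measured genes at least 2-fold lower were 6.54% and 4.83%, and those at least 2-fold higher 4.14% and 6.87%. Ifi47, an interferon-induced GTPase, had 10 UMIs in the hypoxic and 619 in the other cells of the treated library and 1 and 165 in the vehicle library, log2 ratios of -3.25 (-4.32 to -2.36) and -3.75 (-9.06 to -1.25). The vehicle value rests on that 1 UMI. With cells thinned to 4000 UMIs it was 0.18, where a group with 0 UMIs was set to 3. At such counts the thinned value can be a bound, and no direction is read from it. Gbp2, another such GTPase, had 17 against 743 and 14 against 550 UMIs, log2 ratios of -2.75 (-3.54 to -2.06) and -1.68 (-2.56 to -0.92). Not every gene of the list was lower: Parp9 had log2 ratios of 0.23 and 0.23, Sp100 0.27 and 0.036 and Irf9 -0.14 and -0.49, the last with both intervals including 0.

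Outside that list, 4 genes that are also known to respond to interferons were among the 15 lowest when genes were ranked by the ratio nearest to 0. That ranking fixed their direction, so they add no support to the list. Cxcl10, a chemokine that draws T cells, had 6 against 358 and 4 against 168 UMIs, log2 ratios of -3.20 (-4.65 to -2.06) and -1.77 (-3.67 to -0.39), and Nlrc5, the activator of the MHC class I genes, had -1.50 (-2.39 to -0.72) and -2.42 (-4.71 to -0.85). The protease inhibitors Serpina3f and Serpina3g, near-identical copies whose reads could be split between them, had -4.56 and -3.69 and -4.56 and -2.98. Each of these 4 genes had at most 14 UMIs in the hypoxic cells of either library. The MHC class I list had medians of -0.42 and -0.23, with B2m at -0.26 and -0.23 and the peptide transporter subunit Tap2 at -0.74 and -0.40. The MHC class II list had medians of -0.56 and -0.39, with all 10 measured genes below 0 in both libraries, among them the class II activator Ciita at -1.09 and -0.86 and H2-Eb1 at -0.72 and -0.53. Along the score, the summed interferon list went from 14.9 to 7.77 UMIs per 10000 in the vehicle library; in the treated library it went from 22.5 to 11.5 in hypoxic cells with lower and 13.1 in those with upper scores, so the decrease stopped within the hypoxic cells there.

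B cell genes were present in both kinds of cell, with differences in single genes. Cd79b, the signalling partner of Cd79a, stood at 353 CPM in the hypoxic and 382 in the other A20 cells of the treated library, and 374 and 422 in the vehicle library and Ms4a1 (CD20) at 164 against 249 and 177 against 218 CPM. The B cell list had medians of -0.10 and 0.051. Of 26 measured entries, 2 were at least 2-fold higher and 2 lower in the treated and 3 and 1 in the vehicle library. Over all measured genes, 4.14% were higher and 6.54% lower by as much in the treated and 6.87% and 4.83% in the vehicle library. The counts are small, and nothing is read from them. The kinase Lyn was higher in both libraries, with log2 ratios of 1.21 (1.01 to 1.41) and 1.30 (1.11 to 1.48), while the transcription factors Pax5 and Spib had -0.70 and -0.52 and -1.36 and -0.61. Host B cells share the markers of the gate and were not separated from A20 cells. Xist, a transcript of female cells, was found in 1 of 226 and 4 of 169 hypoxic cells and in 8 of 1528 and 18 of 2022 other A20 cells. The sex of the host mice and of the A20 line was not established here, so these counts do not measure the number of host cells.

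Further genes were among the 20 with the highest ratios when genes were ranked by the smaller of their 2 ratios. Lef1, a transcription factor of the WNT pathway, stood at 17.8 CPM in the hypoxic and 3.02 in the other A20 cells of the treated library, and 14.5 and 3.20 in the vehicle library, log2 ratios of 2.56 (2.09 to 3.02) and 2.18 (1.72 to 2.62). Vim (vimentin) stood at 52.0 against 10.2 and 22.8 against 5.73 CPM, log2 ratios of 2.35 and 1.99, and Kynu, the kynureninase of tryptophan breakdown, had 2.03 and 2.37. Prelid2 had 2.31 and 2.1, the phosphatase Dusp14 1.90 and 2.51, the AP-1 subunit Fosl2 1.90 and 1.85, the ganglioside activator Gm2a 1.81 and 2.12 and the NAD precursor kinase Nmrk1 1.77 and 2.07. From the lists, Klf2, a transcription factor of lymphocyte trafficking, stood at 1.52 and 1.49. Among the 15 lowest by the same ranking, outside the interferon and replication genes named above, were Wfdc21 at -2.70 and -2.97, the helicase Recql4 at -1.71 and -1.89, Mtfp1, a mitochondrial fission protein, at -1.70 and -1.64, and the lipid phosphatase Inpp4b at -1.59 and -1.79. Of 9013 genes with at least 100 UMIs in each library, 105 were at least 2-fold higher in both, which is 65.6% of those higher in the treated and 61.0% of those higher in the vehicle library, and 115 were at least 2-fold lower in both, 28.4% and 42.3% of the respective sets.

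Directions were the same in shallow and deep cells. When cells were split at the median depth of their library, the glycolysis median was 1.47 below and 1.39 above it in the treated library, and 1.14 and 1.04 in the vehicle library. Replication genes differed more among shallow than deep cells, with medians of -1.68 and -0.66 in the treated and -1.40 and -0.72 in the vehicle library. Markers of other cell types were mostly at or near 0 in the hypoxic cells: of 12 T cell markers 11 were at 0 in the treated and 7 in the vehicle library, and of 12 monocyte and macrophage markers 10 and 8, where 3 of the T cell markers (the CD3 genes) and 1 of the macrophage markers (Lyz2) are at 0 by the gate. The numbers at 0 were, of 8 dendritic cell markers 6 and 6, of 9 NK cell markers 8 and 7, of 7 neutrophil markers 6 and 6, of 8 fibroblast markers 7 and 7, and of 7 endothelial markers 5 and 5. No UMI of Cd14, Csf1r, the C1q genes, Cd4, Cd8a, S100a8, S100a9, Retnlg, Col1a1, Col3a1, Cdh5, Kdr, Xcr1 or Clec9a was found in any hypoxic cell. Other markers of these lists were found, all at low counts apart from those named next. Lck, Klrk1, Cxcr2, Pecam1, Egfl7 and Pdgfrb had UMIs in hypoxic cells of both libraries, with 8 and 7 for Egfl7. Trac, Trbc1 (4 UMIs), Thy1, Cd28, Adgre1 and Itgam had UMIs in hypoxic cells of the vehicle library only. The macrophage list summed to 92.7 CPM in the hypoxic and 28.1 in the other cells of the treated library and to 135 and 30.01 in the vehicle library, nearly all from Apoe, an apolipoprotein, which had log2 ratios of 1.74 and 2.28; without Apoe the list had 15 and 16 UMIs in the hypoxic cells. The dendritic cell list summed to 82.5 against 45.0 and 77.9 against 42.9 CPM, mostly from the receptor Flt3, with log2 ratios of 0.77 and 0.45. All other UMIs of that list in the hypoxic cells, 55 and 109, came from Ccr7, a chemokine receptor that B and T cells express too, whose log2 ratios of 1.74 and 2.57 were the higher ones. The part of other cell types in these values was not tested. Doublets were not called.

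The second comparison set TAK-981 against vehicle within the hypoxic cells, with the other A20 cells beside it; no test was possible. Of 9997 measured genes in the hypoxic cells, 2.52% were at least 2-fold higher and 1.89% at least 2-fold lower in the treated library, and of 12115 in the other cells 3.54% and 1.6%. All-gene medians were -0.016 and 0.069 on the log2 scale. Glycolysis was at a similar level in the hypoxic cells of both libraries, with a median of -0.0074 and 0 of 25 genes 2-fold higher, while in the other cells the median was -0.30; the log2 ratio was larger in the hypoxic than in the other cells for 23 of 25 genes. Slc16a3 showed this most, at -0.15 (-0.32 to 0.0068) and -1.02 (-1.17 to -0.88) in hypoxic and other cells. At the common threshold, the larger ratios of hypoxic over other cells in the treated library thus came with lower levels in the other cells. Glycolysis rose with the score, and the hypoxic cells of both libraries were cut at the same score. Their similar glycolysis level may therefore be set in part by the choice of cells. With a threshold per library, the glycolysis median in the hypoxic cells was higher, as given further below. The other HIF targets had medians of 0.038 and -0.014, the replication list -0.0031 and -0.15, and the transcripts of the mitochondrial genome 0.35 and 0.31.

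Interferon response genes were higher with TAK-981 in the hypoxic cells as well. At least 2-fold higher were 17 of the 34 genes measured there, and 0 were lower by as much, with a median log2 ratio of 0.97, while in the other A20 cells 34 of 46 were higher. Genes with few UMIs could count as measured through the treated library alone, which favours high ratios in the hypoxic cells. Summed over all 52 listed genes, without that limit, the log2 ratio was 0.44 (0.38 to 0.50) in hypoxic and 0.59 (0.57 to 0.61) in other cells. Over the same 34 genes the medians were 0.97 in hypoxic and 1.28 in other cells, with the ratio smaller in the hypoxic cells for 20 and larger for 14. Usp18, which removes ISG15 from proteins, had 33 UMIs in treated and 2 in vehicle hypoxic cells, log2 3.93 (1.96 to 7.03), and 1110 and 145 in other cells, log2 3.74 (3.49 to 4.0). Isg15, the ubiquitin-like protein itself, had 81 and 14 UMIs in the hypoxic cells, log2 2.42 (1.59 to 3.35), against 3.54 (3.34 to 3.75) in the other cells. Irf7, a transcription factor that amplifies the response, showed the same order, with 1.56 (1.14 to 2.01) and 2.33 (2.20 to 2.45). Irf9, a component of the signalling complex, went the other way, with log2 ratios of 2.11 (1.51 to 2.75) and 1.77 (1.61 to 1.93) in hypoxic and other cells. For Bst2, a membrane protein that tethers viruses, the log2 ratios were 0.0036 (-0.16 to 0.17) and 0.47 (0.42 to 0.51) and for Gbp2 0.16 (-0.94 to 1.30) and 1.23 (1.07 to 1.40). The response was therefore present in the hypoxic cells, with its size differing gene by gene and most hypoxic-cell intervals wide.

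**Figure D5:**
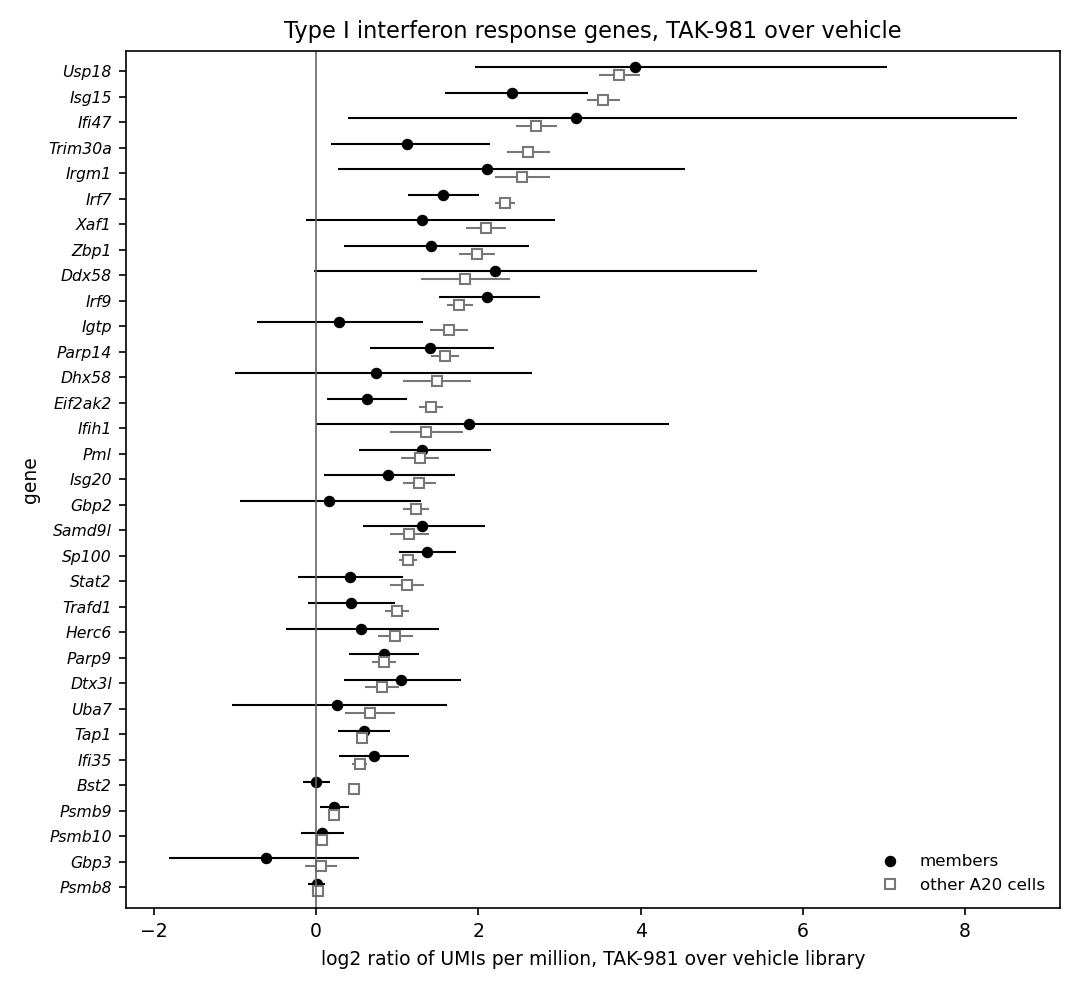
Log2 ratio of TAK-981 over vehicle (x axis) for 33 of the 34 type I interferon response genes measured in both kinds of cell (y axis, ordered by the ratio in other A20 cells), with exact 95% counting intervals, in hypoxic A20 cells (members, black points) and other A20 cells (grey squares). The median over all 34 is 0.97 in the hypoxic and 1.28 in the other cells, and the intervals of the hypoxic cells are the wider ones.

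MHC class I genes had medians of 0.25 in hypoxic and 0.43 in other cells, and ER chaperones 0.073 and 0.31, with Hsp90b1 at 0.32 (0.23 to 0.42) and 0.85 (0.82 to 0.88). The ratio was smaller in the hypoxic cells for 13 of 15 and 22 of 26 genes. Ribosome biogenesis genes were lower with TAK-981 in the hypoxic cells, median -0.28 against -0.090, and for 27 of 28 genes the ratio was smaller there. The all-gene medians also differed, at -0.016 in hypoxic and 0.069 in other cells. The share of all genes with a smaller ratio in the hypoxic cells is not given, so nothing is read from these counts alone.

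Outside the interferon list, a few genes were much higher with TAK-981 in hypoxic cells, and several of them rested on few cells. Bglap3, of the osteocalcin family, had 214 and 15 UMIs in the treated and vehicle hypoxic cells, log2 3.72 (2.96 to 4.58), and 2.07 (1.94 to 2.19) in other cells, so it was higher in both. Slpi, a secreted protease inhibitor, had 277 and 28 UMIs in hypoxic cells, log2 3.19 (2.63 to 3.81), and -0.72 (-0.97 to -0.47) in other cells. Its UMIs lay in 20 of 226 cells, 1 of which held 41.5%, and the log2 ratio was 0.87 with a threshold per library and -1.44 without cells holding any marker of another cell type. Rgs1, a brake on G protein signalling, had log2 ratios of 1.78 (1.18 to 2.43) and 0.011 (-0.39 to 0.41), with 40.7% of its UMIs in 1 cell. Hilpda was 0.81 (0.52 to 1.11) and -0.23 (-0.42 to -0.038), and no cell held more than 6.57% of its UMIs in the hypoxic cells of the treated library. Of these 274 UMIs, 225 lay in hypoxic cells with scores of at least 13.7. Its level there was 91.5 CPM in the treated and 56.7 in the vehicle library, against 26.2 and 22.4 in hypoxic cells with lower scores.

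Further genes of the ranking had fewer UMIs. Upp1, uridine phosphorylase, had 60 and 8 UMIs in the hypoxic cells and 20 and 8 in the other cells, log2 2.79 (1.72 to 4.07) and 2.12 (0.88 to 3.52) for TAK-981 over vehicle, and 0.48 in hypoxic cells without those holding a marker of another type. Sncb, beta-synuclein, had 51 and 12 in the hypoxic and 3 and 5 in the other cells, so nearly all its UMIs were in the hypoxic cells, in 29 cells of the treated and 8 of the vehicle library. The neighbouring death receptor homologues Tnfrsf22, Tnfrsf23 and Tnfrsf26, similar copies whose reads could be split, had log2 ratios of 2.49, 3.18 and 1.58 in hypoxic and 0.28, 1.2 and 0.45 in other cells. Of the Tnfrsf23 UMIs in treated hypoxic cells, 26.5% lay in 1 of 24 cells. For Upp1, Sncb, Tnfrsf22, Tnfrsf23, Rgs1 and Hilpda, most UMIs in the hypoxic cells of the treated library lay in those with the higher scores. The median score was also higher in that library. The part of the score in these ratios was not tested.

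Fewer genes were lower with TAK-981. Nr4a1, an immediate early nuclear receptor, had 14 and 95 UMIs, log2 -2.88 (-3.80 to -2.06), but 1 vehicle cell held 51.6%, and the ratio was 1.65 without the cells holding a marker of another type. Anxa10 was lower in both kinds of cell, with -1.30 (-1.67 to -0.93) and -0.98 (-1.19 to -0.77), as was Grasp with -1.98 and -0.96, though without those cells its log2 ratio in hypoxic cells was 0.55. Cd83, an activation marker, had -1.03 (-1.40 to -0.67) and -0.15 (-0.28 to -0.022) and Ccr7, which guides cells to lymph nodes and is also on the dendritic cell list, -1.10 (-1.60 to -0.62) and -0.28 (-0.62 to 0.060). Ly6a, a surface protein known to respond to interferon, went in opposite directions, with -0.58 (-0.82 to -0.33) in hypoxic and 0.51 (0.47 to 0.56) in other cells.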

How the data were processed

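The deposited gene by cell matrices of the 2 libraries hold raw counts: whole UMIs for each gene in each barcode, without any normalization, per the file headers and values; the submitters' processing notes name Cell Ranger 2.1.1 and Seurat 2 without saying what each did. The genome build is not given in the sources used here. Barcodes were gated and scored as the report describes. UMIs were summed over cells of a group within a library and divided by the group's total. A gene was measured with at least 10 UMIs in the 2 groups compared, and a gene past 2-fold was counted as higher or lower. Intervals of ratios are exact binomial (Clopper-Pearson, 95%) on the split of UMIs. With 1 library per arm, no test was made, and the arms have no replicates.

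Genes were named from 24 gene lists (ribosomal proteins, taken by symbol, were a further list), or by rank: hypoxic against other cells, the 20 highest and 15 lowest by the ratio nearest to 0 of the 2 libraries (at least 100 UMIs); TAK-981 against vehicle in hypoxic cells, the 20 highest and 15 lowest by the interval bound nearest to 0 (at least 30 UMIs), and 5 in each direction by the ratio of ratios against other cells (at least 100 UMIs). Ribosomal protein, mitochondrial and immunoglobulin variable genes were not named singly from ranks. Hypoxic cells, score genes and lists were chosen with earlier results of these data known. For depth, cells were thinned to 4000 UMIs (seed 1). Doublets were not called. Some measured genes are not reported here, though list counts and medians include them. Alternatives were the thinning, a top 5% or 20%, a threshold per library, mitochondrial limits of 5% and 20%, scores without Fam162a or Bnip3, no cells with a marker of another type, at least 50 UMIs, and median-of-ratios scaling. Scripts were tested on simulated data and ran under Python 3.11.15 with matplotlib 3.10.9, pandas 2.3.3, numpy 2.4.6 and scipy 1.17.1.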

Additional observations from a re-analysis of the deposited data

How the results depend on the processing

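No paired analysis was possible because each arm has 1 library. The ratio of the shares of hypoxic cells (1.67) was 2.23 for the top 5%, 1.03 for the top 20%, 1.22 without cells holding a marker of another type and 0.999 with a threshold per library, which fixes equal shares by construction. The glycolysis median for TAK-981 over vehicle in hypoxic cells (-0.0074) was 0.24 with a threshold per library, where the vehicle cells kept have lower scores. The medians of glycolysis and other HIF targets in hypoxic over other cells and the interferon median for TAK-981 over vehicle kept their direction under every alternative run. Of 247 gene values printed, those at 2-fold or more were recomputed 1589 times, with the same sign in 1583 and still past 2-fold in 1449. The sign changed without cells holding a marker of another type for Pfkfb4 in hypoxic over other cells of the TAK-981 library (log2 ratio 0.19) and, for TAK-981 over vehicle in hypoxic cells, Slpi (-1.44), Nr4a1 (1.65) and Grasp (0.55). With cells thinned to 4000 UMIs it changed for Ifi47 in hypoxic over other cells of the vehicle library (0.18) and for Upp1 in other cells (-0.20). The Ifi47 value can be a bound, with 0 UMIs set to 3, and no direction is read from it. The cause of these sign changes was not tested. Leaving out the cell with the most UMIs of a gene on each side was chosen after seeing the data; it changed no sign of a value at 2-fold or more. Depth limits genes under 10 UMIs, which had no ratio.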

Other observations

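Among the genes of cell death, the BCL-2 family as a whole was level, with median log2 ratios of hypoxic over other A20 cells of -0.14 and 0.042 in the treated (TAK-981) and vehicle libraries, but single members differed in both. Bmf, an activator of death, stood at 6.01 CPM in the hypoxic and 3.55 in the other A20 cells of the treated library, and 9.76 and 2.77 in the vehicle library, log2 ratios of 0.76 (0.075 to 1.39) and 1.82 (1.26 to 2.34), and the activator Bcl2l11 (BIM) had 0.86 and 1.39, while Bid, another activator, had -0.76 and -0.77. Plasma cell and secretory genes had medians of -0.22 and 0.0053. Jchain, the joining chain of secreted antibodies, had log2 ratios of 0.10 and 0.17 and Mzb1, an ER protein of antibody-secreting cells, 0.37 and 0.43. Prdm1 (BLIMP-1), the master regulator of plasma cells, had only 11 and 25 UMIs in hypoxic and other cells of the treated library and 12 and 18 in the vehicle library, log2 ratios of 1.52 (0.35 to 2.59) and 3.03 (1.85 to 4.17).

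The SUMO pathway list, whose activating enzyme TAK-981 inhibits, had medians of -0.26 and -0.15, and for TAK-981 over vehicle 0.022 in hypoxic and 0.099 in other cells. Cytosolic heat shock proteins had medians of -0.31 and -0.15 for hypoxic over other cells. Immediate early and AP-1 genes had medians of 0.26 and 0.17, with Jun at 1.39 and 0.62, and genes of NF-kB and inflammation -0.023 and -0.099. For TAK-981 over vehicle, the early response gene Egr1 stood at a log2 ratio of 0.44 (0.19 to 0.69) in hypoxic and -0.61 (-0.70 to -0.52) in other cells.

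Cells outside the A20 gate were scored in the same way. None of 37 cells with CD3 transcripts in the treated library reached it, which allows a share of up to 8.11% when 3 counts are taken as the limit (exact binomial 95% upper bound 9.49%), and 1 of 49 did in the vehicle library. Among cells with Lyz2 and neither Cd79a nor CD3 transcripts, 2 of 38 and 9 of 39 reached it (exact binomial 95% intervals 0.644 to 17.7% and 11.1 to 39.3%), so the vehicle library held the larger share there, opposite to the A20 cells; this difference was not tested. Of barcodes that met the A20 gate except for a mitochondrial share of 10% or more, 3 of 275 and 0 of 88 reached it, the latter allowing up to 3.41% by the same limit (exact upper bound 4.11%).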
